A study of Mus musculus with 8 samples.

Results

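The 9 genes described here are classical markers of striatal projection neurons: Drd1, Drd2, Adora2a, Ppp1r1b, Rgs9, Rasd2, Syndig1l, Foxp1 and Foxp2. They were found by gene symbol among the 41128 genes of the count table, 8 under the current symbol and Drd1 under the older one, Drd1a. All 9 passed the filter on low counts. RNA-seq was made from the corpus callosum of mice in 8 libraries. The 4 LAQ libraries (numbered 5 to 8) came from PLP-150Q mice given LAQ at 5 mg/kg, starting at an age of 3 months and lasting 2 months. The 4 control libraries (numbered 1 to 4) came from PLP-150Q mice of the same age that received purified water. Both groups were 5 months old at the end and both carry the PLP-150Q transgene, in which the PLP promoter drives a mutant huntingtin fragment in oligodendrocytes. Mice without the transgene were not analysed here. The abbreviation LAQ was taken to mean laquinimod, an immunomodulator given by mouth. The series' design text gives 4 mice per group, as many as there are libraries, but no sample label ties a library to its own animal, and if some shared one, p-values would measure technical spread.

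Striatal projection neurons are the GABA-releasing output cells of the striatum. Those of the direct pathway carry the D1 dopamine receptor, which raises cAMP, and those of the indirect pathway carry the D2 dopamine receptor, which lowers it, together with the adenosine receptor made from Adora2a. In both, protein kinase A phosphorylates DARPP-32, the product of Ppp1r1b, and these neurons are the most vulnerable cell type of Huntington's disease. The corpus callosum is a fibre tract in which cell bodies are mainly glial, and the striatum lies beneath it.

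The LAQ libraries held 9634156 to 12021429 counted reads, and the control libraries held 8790749 to 11972197. Values are CPM, the counts of a gene relative to a common library size set with TMM factors. The 8 myelin markers were abundant, summing to 12594 to 16503 CPM in LAQ and 11887 to 13656 CPM in control. Every striatal marker was detected in every library as well, with Drd2 in LAQ 5 as the lowest value at 86 counts. In bulk tissue, fewer cells of a type and less RNA per cell cannot be told apart.

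For each marker the LAQ group held both the highest and the lowest library, and 0 of the 9 passed edgeR's quasi-likelihood test of LAQ against control at an adjusted p of 0.05, beside 0% of the 15771 genes tested. LAQ 7 was the highest of all 8 libraries and LAQ 5 the lowest for 9 of 9 markers, an ordering that 4.14% of the genes tested showed (653). The reverse ordering, LAQ 5 highest and LAQ 7 lowest, was shown by 3.54% of them (559). LAQ 7 stood at 1.40 (Foxp1) to 2.37 (Drd1) times the control mean, and LAQ 5 at 0.207 (Drd2) to 0.593 (Foxp1) times it. LAQ 8 lay within the control range for 9 of 9 markers, and LAQ 6 lay below every control library for 7 of them. The coefficient of variation was 35.7% to 83.1% in LAQ and 9.65% to 19.9% in control, beside medians over all genes tested of 12.7% in LAQ and 9.98% in control.

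**Figure D1:**
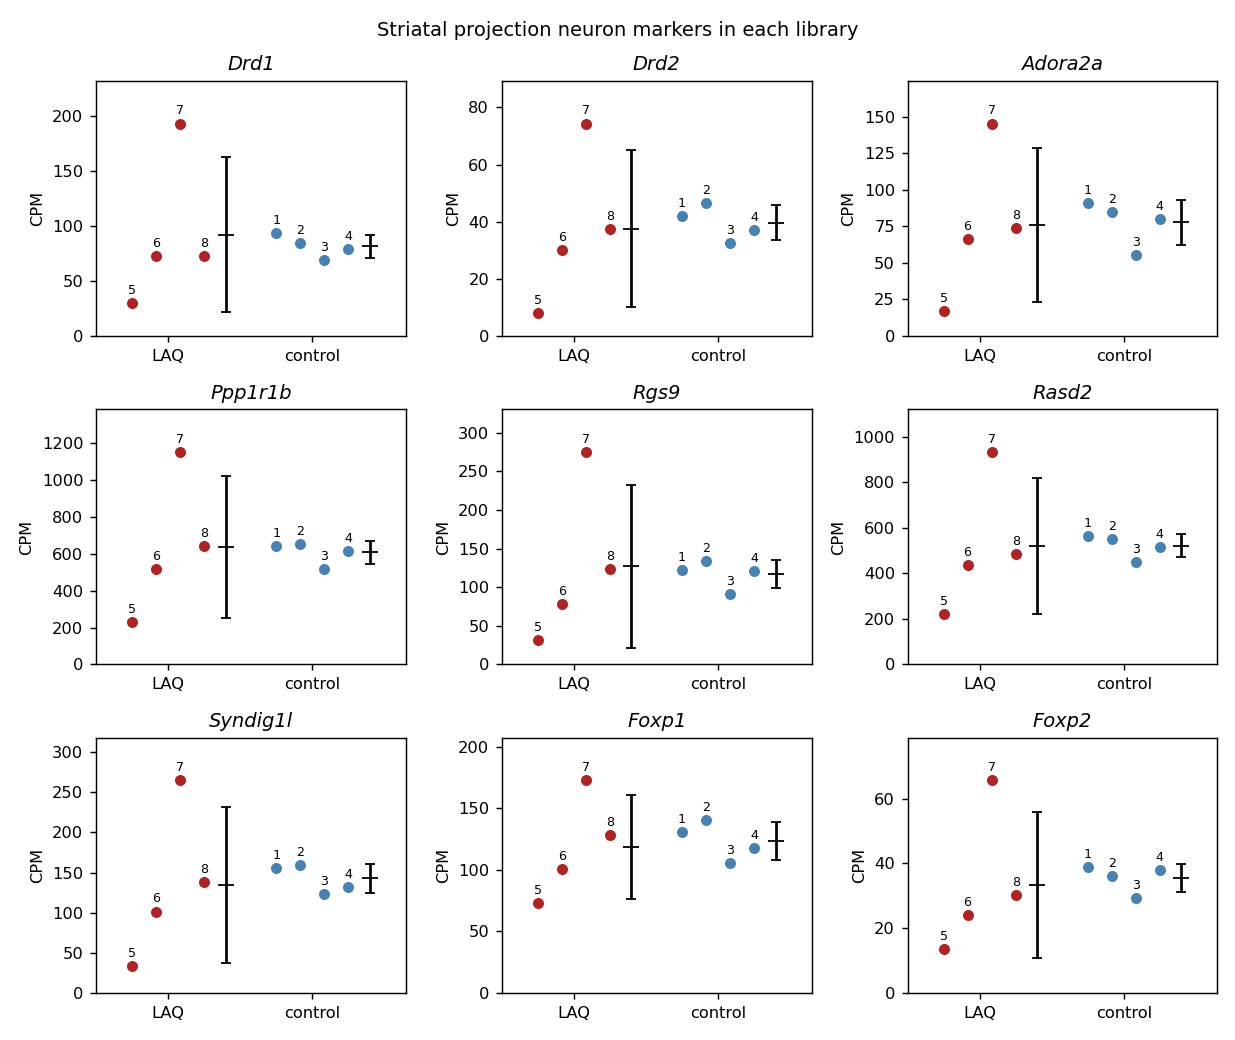
CPM of each marker (vertical axis, linear) in the 4 LAQ libraries (red, left) and the 4 control libraries (blue, right), with library numbers above the points and the mean ± SD in black. In all 9 panels LAQ 7 is the highest point, LAQ 5 is the lowest, and the groups overlap.

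Among the receptors, Drd1 stood at 30.3, 72.9, 194 and 72.8 CPM in LAQ 5, 6, 7 and 8, against 93.7, 85.1, 69.2 and 79.0 CPM in control 1, 2, 3 and 4. LAQ 7 was above and LAQ 5 below every other library, and LAQ 6 and LAQ 8 lay inside the control range. The means were 92.4 ± 70.4 CPM in LAQ and 81.7 ± 10.3 CPM in control (SD, n = 4 each). The log2 fold change was 0.18 ± 0.39 (SE; 95% interval -0.68 to 1.04), with an adjusted p of 0.903 by edgeR's quasi-likelihood test with Benjamini-Hochberg adjustment over 15771 genes, as for every adjusted p below. Drd2 stood at 8.19, 30.0, 74.4 and 37.5 CPM in LAQ 5 to 8, against 42.1, 46.7, 32.6 and 37.0 CPM in control 1 to 4. The 86 reads of LAQ 5 gave a 95% exact Poisson interval of 6.55 to 10.1 CPM, which covers counting error only and lies below every other library. LAQ 6 was also below all 4 control libraries, while LAQ 7 was 9.08 times LAQ 5, the widest such ratio of the 9 markers. Drd2 averaged 37.5 ± 27.5 CPM in LAQ and 39.6 ± 6.11 CPM in control (SD, n = 4 each), and its log2 fold change was -0.07 ± 0.43 (SE; 95% interval -1.004 to 0.86, edgeR adjusted p = 0.971).

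Adora2a, whose adenosine receptor sits with the D2 receptor on indirect pathway neurons, stood at 17.1, 66.7, 145 and 74.0 CPM in LAQ 5 to 8, against 91.1, 84.8, 55.7 and 79.9 CPM in control 1 to 4. Control 3 was the lowest control library here, as for all 9 markers, and it lay below LAQ 6. The log2 fold change was -0.04 ± 0.42 (SE; 95% interval -0.96 to 0.89, edgeR adjusted p = 0.986), with means of 75.8 ± 52.8 CPM in LAQ and 77.9 ± 15.5 CPM in control (SD, n = 4 each).

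The start of the Drd1 gene lies on chromosome 13, minus strand, and that of Drd2 on chromosome 9, plus strand. The 250 bases before the starts of these dopamine receptor genes are shown from RefSeq on GRCm38.p6. They are chr13:54055659-54055908 for Drd1 (the more upstream of 2 annotated starts) and chr9:49340153-49340402 for Drd2. Whether any promoter sequence bears on the marker levels in these libraries was not tested. Capitals mark GGGCGG on either strand (CCGCCC on the other), a GC box.
Drd1: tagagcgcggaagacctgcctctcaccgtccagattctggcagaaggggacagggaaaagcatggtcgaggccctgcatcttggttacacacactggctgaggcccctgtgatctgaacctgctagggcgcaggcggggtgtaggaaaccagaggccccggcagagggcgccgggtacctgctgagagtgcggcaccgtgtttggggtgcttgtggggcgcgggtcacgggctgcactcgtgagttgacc
Drd2: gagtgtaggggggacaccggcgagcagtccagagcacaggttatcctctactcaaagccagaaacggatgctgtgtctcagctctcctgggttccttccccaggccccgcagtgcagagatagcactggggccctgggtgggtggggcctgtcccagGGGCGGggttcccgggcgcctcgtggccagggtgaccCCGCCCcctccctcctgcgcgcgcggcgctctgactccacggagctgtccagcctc
The Drd2 window holds the GC box 2 times and the Drd1 window 0 times, although the window of the second Drd1 start, chr13:54054781-54055030, holds it once. Of 32851 RefSeq windows of this length, 32.7% hold at least 1. The cAMP response element TGACGTCA, searched on both strands in the same way, was in neither window and is in 1.55% of all windows.

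The signalling genes downstream of the receptors were also highest in LAQ 7 and lowest in LAQ 5, while the libraries between them changed places from gene to gene. Ppp1r1b, whose product DARPP-32 inhibits protein phosphatase 1 when phosphorylated by protein kinase A, stood at 232, 517, 1153 and 645 CPM in LAQ 5 to 8, against 644, 656, 518 and 617 CPM in control 1 to 4. LAQ 6 was just below the lowest control library, LAQ 8 was inside the control range, and LAQ 7 was 4.97 times LAQ 5. The log2 fold change was 0.07 ± 0.34 (SE; 95% interval -0.67 to 0.80, edgeR adjusted p = 0.963), with means of 637 ± 385 CPM in LAQ and 609 ± 62.8 CPM in control (SD, n = 4 each). Exons of Ppp1r1b overlap those of 1700003D09Rik on the opposite strand, and the strand setting of the counting was not given in the sources used here, so reads of the pair cannot be told apart with certainty. The row of 1700003D09Rik held 12163 reads over the 8 libraries, beside 53006 for Ppp1r1b. It too was highest in LAQ 7 (257 CPM) and lowest in LAQ 5 (51.7 CPM), against 115 to 155 CPM in control.

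Rgs9, which speeds the switching-off of G proteins behind the D2 receptor, stood at 31.6, 78.4, 275 and 123 CPM in LAQ 5 to 8, against 122, 134, 91.0 and 120.3 CPM in control 1 to 4. It had the highest coefficient of variation of the 9 in LAQ, 83.1%, against 15.6% in control. LAQ 5 and LAQ 6 were below every control library and LAQ 7 was above every control library. Rgs9 averaged 127 ± 105 CPM in LAQ and 117 ± 18.2 CPM in control (SD, n = 4 each), and its log2 fold change was 0.12 ± 0.45 (SE; 95% interval -0.86 to 1.11, edgeR adjusted p = 0.945). Rasd2 encodes Rhes, a striatum-enriched small GTPase that binds mutant huntingtin. It stood at 222, 435, 933 and 486 CPM in LAQ 5 to 8, against 563, 553, 452 and 517 CPM in control 1 to 4. Again LAQ 5 and LAQ 6 were low and LAQ 7 high, with LAQ 8 inside the control range. The log2 fold change of Rasd2 was -0.01 ± 0.31 (SE; 95% interval -0.67 to 0.66, edgeR adjusted p = 0.999), from means of 519 ± 299 CPM in LAQ and 521 ± 50.3 CPM in control (SD, n = 4 each).

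Rgs9 lies on chromosome 11, minus strand, and Rasd2 on chromosome 8, plus strand. Their windows of 250 bases before the RefSeq start on GRCm38.p6 are chr11:109298182-109298431 for Rgs9 and chr8:75213694-75213943 for Rasd2. G and C made up 59.6% of the Rgs9 window and 75.2% of the Rasd2 window, beside a median of 52.4% over all windows. Capitals again mark the GC box on either strand.
Rgs9: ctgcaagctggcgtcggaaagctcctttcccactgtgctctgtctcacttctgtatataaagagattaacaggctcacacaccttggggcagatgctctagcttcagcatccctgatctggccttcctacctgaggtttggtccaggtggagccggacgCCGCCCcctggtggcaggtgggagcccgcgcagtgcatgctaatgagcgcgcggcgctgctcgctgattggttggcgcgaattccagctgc
Rasd2: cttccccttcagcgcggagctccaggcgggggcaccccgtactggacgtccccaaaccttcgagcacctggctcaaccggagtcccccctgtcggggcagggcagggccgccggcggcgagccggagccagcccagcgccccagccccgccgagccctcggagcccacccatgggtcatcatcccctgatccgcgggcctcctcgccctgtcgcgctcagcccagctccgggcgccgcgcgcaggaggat
The Rgs9 window holds the GC box once and the Rasd2 window 0 times. The Rgs9 window also holds TATAAA once, a motif found on either strand in 12.4% of all windows. Foxp1 was matched as well, and Ppp1r1b, Adora2a, Syndig1l and Foxp2 are named only.

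Syndig1l, a striatum-enriched membrane protein of the family that includes the synapse organiser SynDIG1, stood at 33.9, 101, 265 and 139 CPM in LAQ 5 to 8, against 156, 160, 123 and 132 CPM in control 1 to 4. LAQ 5 and LAQ 6 were below the control range and LAQ 7 above it. The means were 135 ± 97.0 CPM in LAQ and 143 ± 17.9 CPM in control (SD, n = 4 each), and the log2 fold change was -0.08 ± 0.41 (SE; 95% interval -0.98 to 0.82, edgeR adjusted p = 0.963). An annotated antisense transcript, Gm48573, overlaps its exons and has no row of its own.

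Both forkhead transcription factors had LAQ 7 highest and LAQ 5 lowest, with different widths. Foxp1, which is also expressed in cortical neurons, stood at 73.3, 101, 173 and 128 CPM in LAQ 5 to 8, against 131, 140.3, 105 and 118 CPM in control 1 to 4. Its LAQ 7 to LAQ 5 ratio of 2.36 was the smallest of the 9 markers. Foxp1 averaged 119 ± 42.4 CPM in LAQ and 124 ± 15.3 CPM in control (SD, n = 4 each), and its log2 fold change was -0.06 ± 0.20 (SE; 95% interval -0.50 to 0.39, edgeR adjusted p = 0.945). Exons of Foxp1 overlap those of Gm20696, a protein-coding gene on the same strand whose row held 250 reads over the 8 libraries. Reads in the shared exons may be missing from the Foxp1 row. Foxp2, known for its role in vocal and motor learning, stood at 13.5, 24.0, 65.6 and 30.2 CPM in LAQ 5 to 8, against 39.0, 36.2, 29.4 and 37.8 CPM in control 1 to 4. LAQ 8 was inside the control range close to its lower end, and LAQ 5 and LAQ 6 were below it. The log2 fold change of Foxp2 was -0.09 ± 0.35 (SE; 95% interval -0.85 to 0.67, edgeR adjusted p = 0.948), with means of 33.3 ± 22.6 CPM in LAQ and 35.6 ± 4.29 CPM in control (SD, n = 4 each).

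Taking the 9 markers together, 0 also passed edgeR's test at an unadjusted p under 0.05, beside 11.1% of all genes (1750). DESeq2 called 0 of the 9 at an adjusted p under 0.05, beside 0.845% of the 15258 genes it adjusted (129). In 9 of 9 markers the LAQ and control libraries overlapped, whereas 6.39% of the genes tested had groups without overlap (1007). The median log2 fold change of the 9 was -0.04, beside -0.0012 over all genes. All 9 intervals of the log2 fold change include 0, with lower bounds from -1.004 (Drd2) to -0.50 (Foxp1) and upper bounds from 0.39 (Foxp1) to 1.11 (Rgs9).

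The direction of the estimate depended on which libraries entered the fit, with the widest shifts for LAQ 7 and LAQ 5. Without LAQ 7 all 9 log2 fold changes were negative, from -0.66 ± 0.20 (SE) for Foxp2 to -0.30 ± 0.15 for Foxp1, with a median of -0.57. Without LAQ 5 all 9 were positive, from 0.12 ± 0.16 (SE) for Foxp1 to 0.47 ± 0.28 for Drd1, with a median of 0.26. Without LAQ 6 all 9 were positive as well, from 0.01 (Foxp1) to 0.30 (Rgs9), which turned the sign of 6 markers, as many as without LAQ 5 and against 3 without LAQ 7. The sign turned for 4 markers without control 2, for 2 without control 1 and for 1 without LAQ 8. Leaving out LAQ 5 and LAQ 7 together gave 9 negative values again, from -0.39 ± 0.14 (SE) for Foxp2 to -0.06 ± 0.11 for Ppp1r1b, with a median of -0.17. These shifts rest on single libraries. Without LAQ 7, 0 of the 9 markers passed edgeR's adjusted threshold, beside 2.13% of genes (339 of 15898), and the lowest adjusted p was 0.0927 for Foxp2. Drd1, Rasd2 and Foxp2 then had an unadjusted edgeR p under 0.05, all 3 lower in LAQ, beside 10.8% of genes that were lower at that p. Without LAQ 5 and LAQ 7 together 0 of the 9 passed, beside 0.386% of genes (62 of 16070), and Foxp2 alone had an unadjusted edgeR p under 0.05, with an adjusted p of 0.203, beside 8.1% of genes lower at that p. Without LAQ 5, 0 of the 9 passed, beside 0% of 15940 genes.

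**Figure D2:**
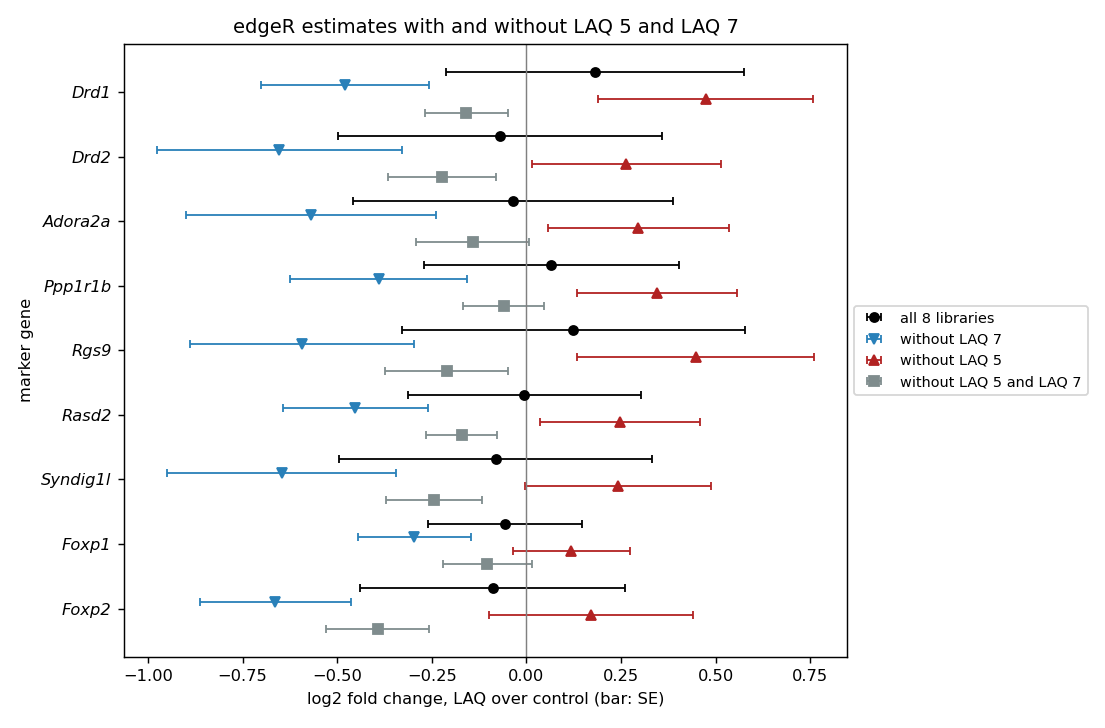
The edgeR log2 fold change of LAQ over control (horizontal axis, bar: SE) of each marker (vertical axis) from all 8 libraries (black circles), without LAQ 7 (blue triangles), without LAQ 5 (red triangles) and without both (grey squares). All 9 blue estimates lie left of 0 and all 9 red ones right of it, and the grey ones run from -0.39 to -0.06.

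The direct and indirect pathway receptor genes were compared by ratios of counts within a library, with a prior count of 2 and no library scaling. Which cells of the bulk tissue the reads came from was not tested. The log2 ratio of Drd1 to Drd2 counts was 1.86, 1.27, 1.38 and 0.95 in LAQ 5 to 8, against 1.15, 0.86, 1.08 and 1.09 in control 1 to 4. LAQ 5, 6 and 7 were above every control library and LAQ 8 was within their range. The mean was 1.37 ± 0.38 in LAQ and 1.05 ± 0.13 in control (SD, n = 4 each), a difference of 0.32 that was 0.16 without LAQ 5 and 0.07 without LAQ 5 and LAQ 7. For Drd1 to Adora2a the log2 ratio was 0.81, 0.13, 0.41 and -0.02 in LAQ 5 to 8, against 0.04, 0.01, 0.31 and -0.02 in control 1 to 4. LAQ 5 and LAQ 7, at opposite ends of the single genes, had the highest values of this ratio. Its mean was 0.33 ± 0.37 in LAQ and 0.09 ± 0.15 in control (SD, n = 4 each), and the difference of 0.25 was 0.09 without LAQ 5 and -0.03 without both libraries. Adora2a to Drd2, both of the indirect pathway, had a log2 ratio of 1.03 ± 0.08 in LAQ and 0.96 ± 0.17 in control (SD, n = 4 each). These ratios were described and not tested.

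**Figure D3:**
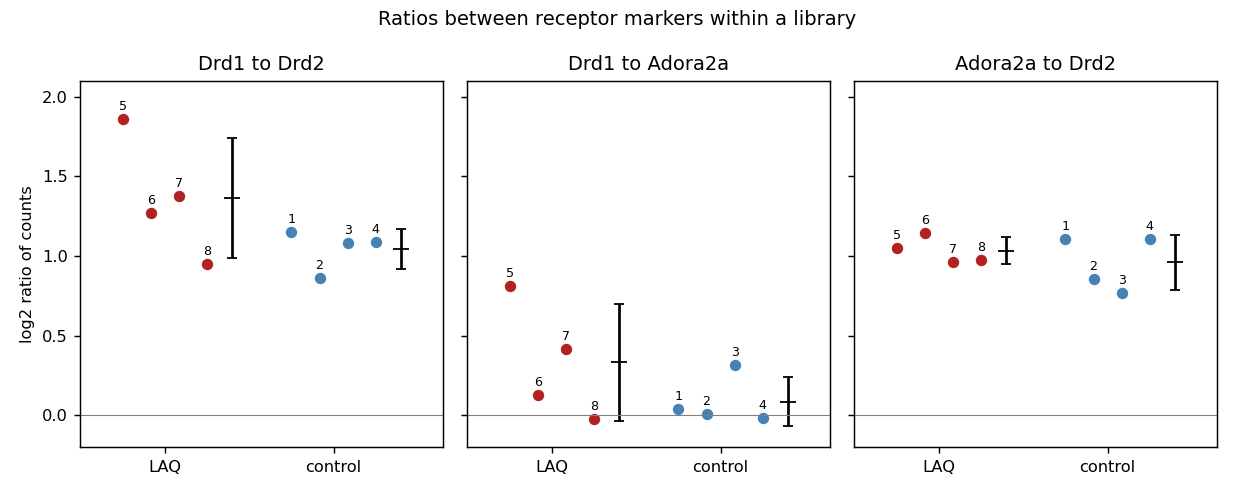
Log2 ratio of counts (vertical axis, prior count of 2) of Drd1 to Drd2, Drd1 to Adora2a and Adora2a to Drd2 in each LAQ library (red, left) and control library (blue, right), with the mean ± SD in black. LAQ 5 is the highest point for Drd1 to Drd2 (1.86) and Drd1 to Adora2a (0.81), and the groups overlap in all 3 panels.

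The 9 genes are protein-coding and lie apart on the genome, except that 2 share chromosome 6 and 2 share chromosome 11. In GENCODE M21 on GRCm38, Drd1 spans 54051183 to 54055705 on chromosome 13, Drd2 spans 49340627 to 49408177 on chromosome 9 and Adora2a spans 75316877 to 75334784 on chromosome 10. Ppp1r1b spans 98348404 to 98357796 and Rgs9 spans 109225355 to 109298129 on chromosome 11, Rasd2 spans 75213944 to 75224113 on chromosome 8 and Syndig1l spans 84677277 to 84698831 on chromosome 12. Foxp1 spans 98925338 to 99522721 and Foxp2 spans 14901349 to 15441977 on chromosome 6. Levels between genes were compared per kilobase of merged exon in that annotation. Ppp1r1b had the highest level, with a mean over the 8 libraries of 213 CPM per kb, followed by Rasd2 at 164, Syndig1l at 45.1, Adora2a at 25.1 and Drd1 at 24.0 CPM per kb. Rgs9 followed at 19.1, Drd2 at 15.1, Foxp1 at 8.82 and Foxp2 at 2.11 CPM per kb. Each gene was above the next in 8 of 8 libraries with 2 exceptions, so the order hardly changed while the levels differed several-fold between libraries. Adora2a was above Drd1 in 5 of 8 libraries, and these neighbours were not separated. Drd2 was above Foxp1 in 7 of 8.

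Genes that work with the markers in these neurons were described from 8 lists of 69 genes, of which 68 were found and 64 tested. Gpr52 was not matched, and Drd3, Drd4, Rgs9bp and Gsx2 lay below the filter. By edgeR 0 of the 64 passed the adjusted threshold, 36 had a positive and 28 a negative log2 fold change, and their median was 0.03, beside -0.0012 over all genes tested. At an unadjusted edgeR p under 0.05 there were 6 (Ppp3ca, Strip2, Ano3, Bcl11b, Rgs6 and Rgs11), beside 11.1% of all genes, and DESeq2 called 0. LAQ 7 was the highest library for 47 of the 64, LAQ 5 the lowest for 41, and both held for 39. Both held for 4.14% of all genes tested. The share of all genes with LAQ 7 highest alone, or LAQ 5 lowest alone, was not determined, here or for the single lists below.

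The 3 neuropeptide genes shared the highest and the lowest library of the markers, but not the place of LAQ 8. Penk, the enkephalin precursor of the indirect pathway, stood at 121, 437, 1107 and 635 CPM in LAQ 5 to 8, against 570, 554, 417 and 523 CPM in control 1 to 4. Tac1, the substance P precursor of the direct pathway, stood at 25.4, 56.8, 134 and 87.3 CPM in LAQ 5 to 8. Control 1 to 4 held 77.6, 69.5, 62.5 and 71.4 CPM of it. Pdyn, the dynorphin precursor, ranged from 32.8 to 77.4 CPM in LAQ and from 37.2 to 51.8 CPM in control. For all 3 LAQ 7 was highest and LAQ 5 lowest, and LAQ 8 was above the control range, unlike for the 9 markers. The edgeR log2 fold changes were 0.16 ± 0.44 (SE) for Penk, 0.11 ± 0.35 for Tac1 and 0.21 ± 0.23 for Pdyn, none past the threshold. Without LAQ 5 and LAQ 7 they were 0.061, 0.038 and 0.081, whereas all 9 markers were then negative.

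Of 9 receptor genes tested, 5 had a positive and 4 a negative log2 fold change, and LAQ 7 was highest with LAQ 5 lowest for 4. Drd5 and Chrm1 were instead lowest in LAQ 7. Drd5, the second D1-like dopamine receptor, stood at 16.0, 16.4, 5.19 and 11.5 CPM in LAQ 5 to 8, against 5.26, 7.13, 11.1 and 8.28 CPM in control 1 to 4. Chrm1, the M1 muscarinic receptor shared with cortical and hippocampal neurons, ranged from 148 CPM in LAQ 7 to 244 CPM in LAQ 5, and from 152 to 201 CPM in control. Their edgeR log2 fold changes were 0.63 ± 0.32 (SE) for Drd5 and 0.24 ± 0.14 for Chrm1. Drd3 and Drd4 did not exceed 0.494 CPM in any library.

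Among 17 genes of cAMP and DARPP-32 signalling, 8 had a positive and 9 a negative log2 fold change, and LAQ 7 was highest with LAQ 5 lowest for 9. Gng7, the gamma subunit of the striatal G protein that couples the D1 dopamine and adenosine receptors to adenylyl cyclase, ranged from 459 to 1665 CPM in LAQ and from 843 to 1026 CPM in control, with a log2 fold change of -0.02 ± 0.28 (SE). Widely expressed members were narrower. Ppp3ca, a catalytic subunit of calcineurin, stood at 1073, 1172, 967 and 992 CPM in LAQ 5 to 8, against 882, 870.1, 972 and 900.1 CPM in control 1 to 4 (log2 fold change 0.21 ± 0.08 SE, edgeR adjusted p = 0.358). Prkar1b, a regulatory subunit of protein kinase A, ranged from 543 CPM in LAQ 7 to 725 CPM in LAQ 6, and from 669 to 814 CPM in control (log2 fold change -0.18 ± 0.10 SE).

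The other R7 family genes and their partners did not share the pattern of Rgs9 as a whole. LAQ 7 was highest and LAQ 5 lowest for 1 of 5 genes tested. That gene was Gnb5, the obligate G-beta partner of the family, at 112, 127, 164 and 142 CPM in LAQ 5 to 8, against 126, 136, 128 and 120 CPM in control 1 to 4. Rgs6 stood at 14.6, 13.7, 18.9 and 17.4 CPM in LAQ 5 to 8, against 23.9, 21.9, 19.3 and 22.1 CPM in control 1 to 4, and its groups did not overlap. Its log2 fold change was -0.44 ± 0.13 (SE, edgeR adjusted p = 0.261), and without LAQ 7 it was -0.53 with an adjusted p of 0.0499, a call made in that setting alone. Over all alternatives the adjusted p of Rgs6 ran from 0.0499 to 0.554. Rgs11 stood at -0.36 ± 0.15 (SE, edgeR adjusted p = 0.416), and Rgs7bp, the membrane anchor, at -0.15 ± 0.08. Rgs9bp, the anchor known from the retina, did not exceed 0.572 CPM.

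Other genes enriched in these neurons had LAQ 7 highest in 13 of 13 and LAQ 5 lowest in 11. Scn4b, a sodium channel beta subunit, stood at 112, 285, 704 and 292 CPM in LAQ 5 to 8, against 368, 366, 288 and 344 CPM in control 1 to 4. Lrrc10b ranged from 96.9 to 290 CPM in LAQ and from 165 to 196 CPM in control. Strip2 (log2 fold change 0.43 ± 0.17 SE, edgeR adjusted p = 0.378) and the anoctamin Ano3 (0.28 ± 0.11, adjusted p = 0.390) were the exceptions at the low end, where a control library was lowest.

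Of 12 transcription factors tested, LAQ 7 was highest for 12 and LAQ 5 lowest for 9. Meis2, a homeodomain factor of the developing striatum, ranged from 38.3 to 174 CPM in LAQ and from 80.7 to 106 CPM in control, with a log2 fold change of -0.0023 ± 0.32 (SE). Bcl11b, which encodes CTIP2 and is also expressed in deep-layer cortical neurons, stood at 152, 192, 225 and 152 CPM in LAQ 5 to 8. Control 1 to 4 held 151, 127, 141 and 151 CPM of Bcl11b. Its groups did not overlap, by a narrow margin (log2 fold change 0.34 ± 0.12 SE, edgeR adjusted p = 0.349). Rgs6 and Bcl11b were the 2 of the 64 without overlap, beside 6.39% of all genes. Foxo1 stood at 0.20 ± 0.16 (SE). Gsx2 did not exceed 1.34 CPM.

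The relatives of Foxp1 and Foxp2 did not share their highest and lowest libraries. Foxp3, the factor of regulatory T cells, ranged from 7.49 to 10.6 CPM in LAQ and from 8.22 to 10.6 CPM in control. Foxp4 ranged from 16.2 to 22.4 CPM in LAQ and from 18.6 to 20.2 CPM in control. Both were lowest in LAQ 7, the library in which Foxp1 and Foxp2 were highest. The GABA synthesis enzymes, shared by all GABA neurons, were intermediate. Gad2 stood at 144, 155, 282 and 185 CPM in LAQ 5 to 8. Control 1 to 4 held 169, 198, 155 and 182 CPM of it. Gad1 ranged from 387 to 611 CPM in LAQ and from 353 to 434 CPM in control. Their log2 fold changes were 0.12 ± 0.18 (SE) for Gad2 and 0.24 ± 0.13 for Gad1.

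The genes most alike to the 9 markers were ranked by Pearson r over the 8 libraries between their log2 CPM and the mean z score of the markers, among 12889 candidates. They included Meis2 (r = 0.995), Serpina9 (0.994), Adcy5 (0.993), Scn4b (0.992), Pde1b (0.991), Cd4 (0.991) and Arpp19 (0.987), and 67 candidates reached 0.95. These r values are a description with n = 8. Without LAQ 5 and LAQ 7, the libraries farthest from the median score, they ranged over the other 6 from 0.890 for Scn4b to 0.953 for Pde1b among the genes named. Adcy5, the main adenylyl cyclase of these neurons, stood at 105, 265, 668 and 275 CPM in LAQ 5 to 8. Control 1 to 4 held 367, 376, 265 and 342 CPM of it. Pde1b, a calcium-activated phosphodiesterase, ranged from 168 to 677 CPM in LAQ and from 313 to 403 CPM in control. Cd4, best known as a T-cell coreceptor, ranged from 5.62 to 56.3 CPM in LAQ and from 18.9 to 34.1 CPM in control, while Arpp19, a phosphatase inhibitor, had the narrowest range, 271 to 527 CPM in LAQ and 403 to 463 CPM in control. Serpina9 ranged from 3.14 to 26.4 CPM in LAQ and from 8.47 to 13.6 CPM in control. Each marker correlated with the mean of the other 8 at r of 0.971 (Foxp1) to 0.996 (Rasd2) over 8 libraries, and at 0.806 (Drd1) to 0.977 (Rasd2) without LAQ 5 and LAQ 7.

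Marker lists of some other neurons also differed between LAQ 5 and LAQ 7, not all in the direction of the 9 markers. Of 5 tested markers of cholinergic neurons, Chat, Slc5a7, Slc18a3 and Lhx8 among them, LAQ 7 was highest and LAQ 5 lowest for 5. The 6 listed genes, Gbx1 included, summed to 9.53 to 100.2 CPM in LAQ and 29.6 to 48.1 CPM in control, and 0 of the 6 were at 0 in any library. Chat, the acetylcholine-synthesising enzyme, stood at 2.38, 7.11, 26.6 and 8.84 CPM in LAQ 5 to 8, against 14.1, 9.47, 8.92 and 13.2 CPM in control 1 to 4. The cortical excitatory list summed to 727 to 1672 CPM in LAQ, lowest in LAQ 7, and to 1331 to 1672 CPM in control, with LAQ 7 lowest for 6 of 10 genes. Slc17a7, the vesicular glutamate transporter of those neurons, stood at 1160, 1178, 459 and 1133 CPM in LAQ 5 to 8, against 1012, 1148, 1228 and 944 CPM in control 1 to 4. This gene made up most of the sum. Cux2 (29.7 against 24.9 CPM), Rorb (70.7 against 57.0) and Otof (21.4 against 6.57) were instead higher in LAQ 7 than in LAQ 5. The remaining genes of the list were lower in LAQ 7. The 8 hippocampal markers had a median of 2.87, 2.36, 0.767 and 1.62 times the control mean in LAQ 5 to 8 and summed to 273 to 508 CPM in LAQ and 218 to 355 CPM in control, with Dsp at 0 in control 2. The part of these cell types in the striatal marker values was not tested.

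Glial markers varied less across the LAQ libraries. The median of 8 myelin markers was 1.11, 1.01, 1.25 and 1.11 times the control mean in LAQ 5 to 8, with LAQ 7 highest for 6 of 8 and LAQ 5 lowest for 0. Astrocyte markers summed to 2201 to 2646 CPM in LAQ and 2547 to 2709 CPM in control, microglial markers to 328 to 395 CPM in LAQ and 356 to 392 CPM in control, and endothelial markers to 126 to 260 CPM in LAQ and 205 to 268 CPM in control. The groups overlapped in these 3 sums. GABA interneuron markers summed to 276 to 330 CPM in LAQ and 338 to 390 CPM in control, and dopamine neuron markers to 21.7 to 29.7 CPM in LAQ and 21.8 to 25.6 CPM in control, with Slc6a3, which defines dopamine neurons, at or below 0.668 CPM in every library and at 0 in control 4. Each LAQ interneuron sum lay below the control range, and the dopamine neuron sums overlapped. Taken singly, 1 of the 7 interneuron genes had groups without overlap, beside 6.39% of all genes tested. The deep-layer cortical list summed to 276 to 358 CPM in LAQ and 318 to 371 CPM in control, the thalamic and habenular list to 203 to 366 CPM in LAQ and 317 to 460 CPM in control, and the neuroblast list to 72.9 to 95.5 CPM in LAQ and 72.0 to 82.9 CPM in control. Ependymal markers summed to 40.3 to 55.9 CPM in LAQ and 24.1 to 35.4 CPM in control, and choroid plexus markers to 1284 to 3637 CPM in LAQ and 387 to 2484 CPM in control, with LAQ 5 highest for 6 of 6. Each LAQ ependymal sum lay above the control range, while 2 of the 6 genes taken singly had groups without overlap. By edgeR 0 genes of the 14 lists of other cell types passed the threshold with all 8 libraries. Without LAQ 7 the calls were 3 of 10 cortical excitatory and 4 of 8 hippocampal genes. Also called were 3 of 9 thalamic and habenular genes and 1 of 5 endothelial genes, beside 2.13% of all genes in that fit. DESeq2 called 1 of 10 cortical excitatory and 1 of 9 thalamic and habenular genes, beside 0.845% of the genes it adjusted. Leaving out LAQ 5 and LAQ 7, edgeR called 2 of 10 and 2 of 9 of them, beside 0.386% of all genes.

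**Figure D4:**
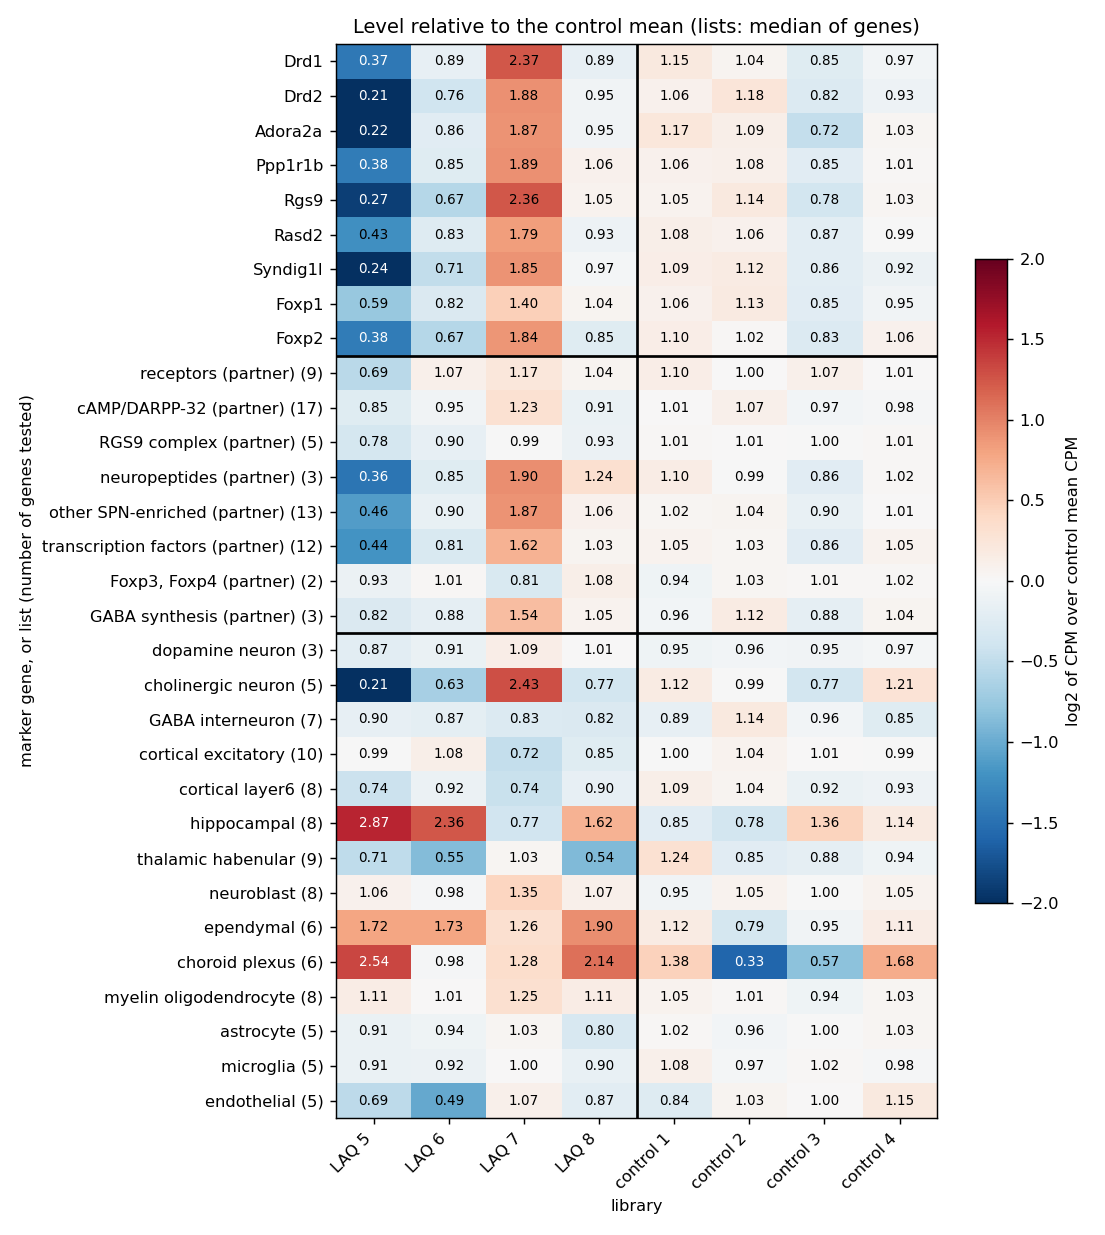
Level in each library (columns, LAQ left) relative to the control mean for the 9 markers, the 8 lists of partner genes and 14 lists of other cell types (lines, with the number of genes tested); for a list, the median over its genes. Printed numbers are ratios and colours their log2. LAQ 5 is low and LAQ 7 high for the markers, the neuropeptides and the cholinergic list (0.208 in LAQ 5 and 2.43 in LAQ 7), while hippocampal markers are high in LAQ 5 (2.87).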

How the data were processed

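Poly(A) RNA from frozen corpus callosum was sequenced. The authors deposited raw read counts per gene, whole numbers in 1 table of 8 columns, and a second table of normalized signal, the counts divided by 1 size factor per library. Per the submitters' processing notes, the tools were STAR 2.5.2b, HTSeq, bcl2fastq 2.17.1.14 and DESeq2 1.10.1, on build GRCm38.p3. The sources used here do not give the annotation, strand setting or read filters. Overlapping genes may therefore share or lose reads.

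Genes were filtered by filterByExpr (minimum count 10, total 15), scaled by TMM and tested two-sided with edgeR 4.0.16 in R 4.3.3, 4 LAQ against 4 control, with Benjamini-Hochberg adjustment over 15771 genes. An SE is the log2 fold change divided by the square root of F. The fitting code was tested on simulated data. Alternatives were DESeq2 1.42.0, other scalings and filters, and leaving out libraries. Log2 CPM and log2 ratios of counts used a prior count of 2, whereas log2 fold changes were taken from the fits. Named partner genes were, per list, the 2 of smallest p and the 2 of highest mean CPM. The most alike genes were the 8 of highest r, without predicted or clone names, at a mean log2 CPM of at least 1. The 9 members and all lists were chosen with earlier results of these data known. No 2 libraries of a group agreed within sampling noise (their chi-square statistics were 7.44 to 23.9 per degree of freedom in LAQ and 4.07 to 5.76 in control). LAQ pairs that included LAQ 7 stood at 15.0 to 23.9, and those without it at 7.44 to 8.43. Some genes these rules chose are not reported here.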

Additional observations from a re-analysis of the deposited data

Results flagged for a closer look

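In 78 groups of 4 libraries examined, 2 held a library far from the other 3 by Dixon's criterion, where chance alone marks about 5% of groups. Rgs11 stood at 100.7 CPM in control 4, beside 78.3 to 80.9 CPM in the other 3 control libraries. Serpina9 stood at 8.47 CPM in control 3, beside 12.9 to 13.6 CPM in the other 3. Neither was one of the 9 markers, for which no library of a group met the criterion.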

How the results depend on the processing

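The alternatives were DESeq2, other scalings, other filters and leaving out libraries. Without LAQ 5 and LAQ 7 the sign turned for Drd1 (-0.16), Ppp1r1b (-0.060), Rgs9 (-0.21), Scn4b (-0.24), Lrrc10b (-0.071), Gad2 (-0.044), Serpina9 (-0.13), Pde1b (-0.076), Cd4 (-0.17), Foxp3 (0.0065) and Foxp4 (0.14). Without a filter it turned for Rasd2 (0.0076), Meis2 (0.010) and Foxp4 (0.0033), and for Meis2 also with median-of-ratios factors (0.0013) and library size alone (0.00037). The cause was not tested.

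Leaving out 1 library at a time, the log2 fold change ran from -0.48 to 0.47 for Drd1, -0.65 to 0.26 for Drd2, -0.57 to 0.30 for Adora2a, -0.39 to 0.34 for Ppp1r1b, -0.59 to 0.45 for Rgs9, -0.45 to 0.25 for Rasd2, -0.65 to 0.24 for Syndig1l, -0.30 to 0.12 for Foxp1 and -0.66 to 0.17 for Foxp2. It ran from -0.45 to 0.21 for Gng7, -0.0070 to 0.18 for Gnb5, -0.076 to 0.37 for Pdyn, -0.38 to 0.49 for Penk, -0.32 to 0.40 for Tac1, -0.57 to 0.32 for Scn4b, -0.30 to 0.23 for Lrrc10b and -0.0088 to 0.30 for Foxo1. For Meis2 it ran from -0.47 to 0.26, for Foxp4 -0.082 to 0.072, for Gad2 -0.13 to 0.24, for Serpina9 -0.53 to 0.43, for Adcy5 -0.65 to 0.26, for Pde1b -0.35 to 0.33, for Cd4 -0.61 to 0.38 and for Arpp19 -0.29 to 0.022.

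Genes past the threshold numbered 0 with all 8 libraries, 129 by DESeq2, 25 without a filter, 62 without LAQ 5 and LAQ 7, and 0 to 339 leaving out 1 library, with 339 only without LAQ 7. The markers past it numbered 0 under every alternative run, and the partner genes 0 to 1 (Rgs6, without LAQ 7). No paired analysis was possible because the groups share no replicate numbers. Depth left the lowest marker value at 86 counts (Drd2 in LAQ 5), and Drd3, Drd4, Rgs9bp and Gsx2 were too low to test.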
